A study of Sus scrofa with 23 samples.

Results

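Expression of 4 genes of blood vessels and basement membranes was examined in the backfat of pigs fed with or without corn dried distillers grains with solubles (cDDGS), a feed byproduct of ethanol production. The genes were SPARCL1 (ENSSSCG00000009222), PCDH12 (ENSSSCG00000014395), PLXND1 (ENSSSCG00000011592) and COL15A1 (ENSSSCG00000029421), 4 of the 25322 gene rows counted in every pig. They were picked because earlier comparisons of these same pigs had placed them among the genes that differed between group I and group II, group IV or the combined groups II+III+IV. Their values in those comparisons are therefore given as a description, without a p-value.

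Backfat, the subcutaneous fat of the back, was taken from 23 crossbred pigs, which had been fed 4 diets. Group I, the control of 7 pigs, received -cDDGS+rapeseed oil. The diet of the 6 pigs of group II was +cDDGS+rapeseed oil, that of the 5 pigs of group III +cDDGS+beef tallow, and that of the 5 pigs of group IV +cDDGS+coconut oil. Group I and group II differed in cDDGS, with rapeseed oil in both diets. Groups III and IV differed from group I in the fat source as well, so in those comparisons cDDGS and the added fat cannot be told apart. The 12 females were gilts and the 11 males were barrows, that is, castrated males, and the diets were formulated to supply the same energy.

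Capillaries run through fat tissue between the adipocytes, and each vessel consists of an endothelial lining, a sheet of matrix called the basement membrane and a coat of mural cells. SPARCL1 encodes a secreted matricellular glycoprotein related to SPARC and is abundant in vessel walls. PCDH12 encodes a protocadherin, an adhesion protein of endothelial cell junctions. PLXND1 encodes a plexin of endothelial cells that receives guidance signals of the semaphorin family, above all SEMA3E. COL15A1 encodes the chain of collagen XV, which lies at the outer face of the basement membrane around capillaries, muscle fibres and adipocytes.

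Between 2437172 and 7979426 reads were counted on genes in each pig, and reads falling on no annotated gene made up 51.1% to 71.3% of the uniquely mapped reads. Levels are given as CPM (counts scaled to the library size of each pig) after TMM normalization, which scales each library so that most genes keep the same level. Over all pigs, a pig had 827 to 3566 reads of SPARCL1, 105 to 680 of PLXND1 and 71 to 444 of COL15A1, but only 8 to 74 of PCDH12, whose values carry the largest counting error. Endothelial identity of part of the tissue was visible in PECAM1, an adhesion molecule of endothelial cells, at a median of 745 CPM, and adipocyte identity in PLIN1, the lipid droplet coat protein, at a median of 1169 CPM. In bulk tissue, fewer cells of a type and less RNA per cell cannot be told apart.

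**Figure D1:**
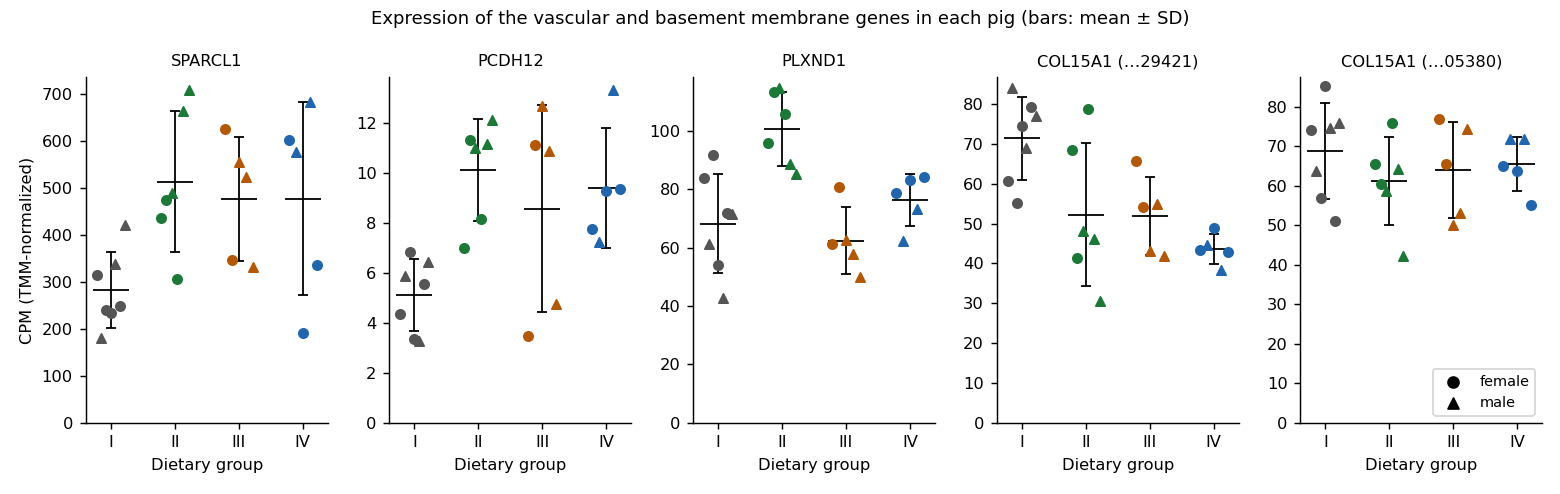
Each point is 1 pig, with the dietary group on the horizontal axis and TMM-normalized CPM on the vertical axis, and the bars give the mean ± SD of the group. SPARCL1 and PCDH12 averaged higher in groups II, III and IV than in group I, PLXND1 stood highest in group II, and COL15A1 read by its first identifier averaged lowest in group IV, at 43.7 against 71.4 CPM in group I, while the second identifier averaged 65.5 against 68.8 CPM there.

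SPARCL1 averaged 283 CPM ± 80.4 (SD, n = 7) in group I and 513 ± 150 (n = 6), 476 ± 131 (n = 5) and 477 ± 206 (n = 5) in groups II, III and IV. In group I the values ran from 181 to 421 CPM around a median of 249, and in group II from 306 to 710 around 481. The 5 pigs of group III had 626, 346, 555, 523 and 332 CPM. The 5 pigs of group IV had 602, 576, 191, 682 and 336 CPM. Of the 16 pigs fed cDDGS, 11 lay above the highest pig of group I, and the pig of group IV at 191 CPM lay near the lowest of group I. The log2 fold change against group I was 0.88 (SE 0.21) in group II, 0.76 (SE 0.27) in group IV and 0.80 (SE 0.21) with the 3 groups combined. The difference for group IV depended on how reads outside genes were treated. That share was 53.2% to 60.1% in group I and 57.7% to 71.3% in group IV, and with the share as a covariate the log2 fold change was 0.11 in place of 0.76.

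PCDH12 averaged 5.099 CPM ± 1.45 (n = 7) in group I, against 10.1 ± 2.04 (n = 6), 8.57 ± 4.15 (n = 5) and 9.39 ± 2.39 (n = 5) in groups II, III and IV. The 7 pigs of group I spanned 3.27 to 6.84 CPM with a median of 5.57, and the 6 pigs of group II spanned 6.98 to 12.1 with a median of 11.1. In group III the values were 3.48, 11.1, 12.7, 10.9 and 4.75 CPM, so that 3 pigs lay above every pig of group I and 2 within its range. In group IV they were 7.74, 7.23, 9.28, 13.3 and 9.36 CPM. Groups II and IV did not overlap group I. Among all genes tested, 0.203% were higher without overlap in group II and 0.424% in group IV, and nothing is read from these shares because the gene was chosen on these contrasts. The log2 fold change against group I was 0.99 (SE 0.21) in group II, 0.87 (SE 0.23) in group IV and 0.88 (SE 0.21) with the groups combined.

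PLXND1 followed another order, with 101 CPM ± 12.6 (n = 6) in group II, 76.3 ± 9.01 (n = 5) in group IV, 68.2 ± 16.9 (n = 7) in group I and 62.4 ± 11.4 (n = 5) in group III. Group I ranged from 42.9 to 91.8 CPM around a median of 71.4, and group II from 85.1 to 115 around 101. The pigs of group III had 61.1, 80.9, 62.5, 57.8 and 49.9 CPM. Those of group IV had 78.7, 62.2, 83.2, 73.3 and 84.2 CPM. All 6 pigs of group II therefore exceeded all 10 pigs of groups III and IV, whereas 4 of the 6 exceeded the highest pig of group I. The log2 fold change against group I was 0.58 (SE 0.15) in group II and 0.17 (SE 0.16) in group IV, the latter about as large as its error.

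COL15A1, read by the identifier given in the study, went the opposite way. Its mean was 71.4 CPM ± 10.4 (n = 7) in group I, and 52.3 ± 17.9 (n = 6), 52.0 ± 9.83 (n = 5) and 43.7 ± 3.77 (n = 5) with diets II, III and IV. Group I ranged from 55.2 to 84.1 CPM with a median of 74.5, and group II from 30.7 to 78.8 with a median of 47.1. Group III held 65.8, 54.2, 43.1, 55.0 and 41.8 CPM. Group IV held 43.5, 44.7, 49.0, 38.4 and 43.0 CPM, the narrowest spread of the groups and wholly below group I. Among all genes tested, 0.472% were lower in group IV without overlap. Nothing is read from this share, because the comparisons behind the choice of the gene included group IV. The log2 fold change against group I was -0.43 (SE 0.18) in group II, -0.70 (SE 0.12) in group IV and -0.52 (SE 0.13) with the groups combined.

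A gene name table pairs the symbol COL15A1 with another identifier, ENSSSCG00000005380, which was also counted and had no part in the choice of genes. Whether both identifiers lie on the same gene was not tested, so values under the name COL15A1 are uncertain to that extent. Reads of the second identifier averaged 68.8 CPM ± 12.1 (n = 7) in group I, and 61.2 ± 11.04 (n = 6), 64.0 ± 12.1 (n = 5) and 65.5 ± 6.85 (n = 5) in the groups fed cDDGS, in the order II, III and IV. In edgeR its log2 fold change against group I was -0.15 (SE 0.14, adjusted p = 0.693), -0.11 (SE 0.15, adjusted p = 0.907) and -0.06 (SE 0.13, adjusted p = 0.871) for groups II, III and IV. None of the 3 differences exceeded the spread between pigs by this test. Of the reads on both identifiers, the first took 51.0% ± 5.78 (n = 7) in group I and 45.3% ± 4.67 (n = 6), 44.9% ± 5.45 (n = 5) and 40.1% ± 3.71 (n = 5) in the others. The share in group III was 6.08 percentage points below that in group I, which is given without a p-value because the share contains the reads used in the choice.

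**Figure D2:**
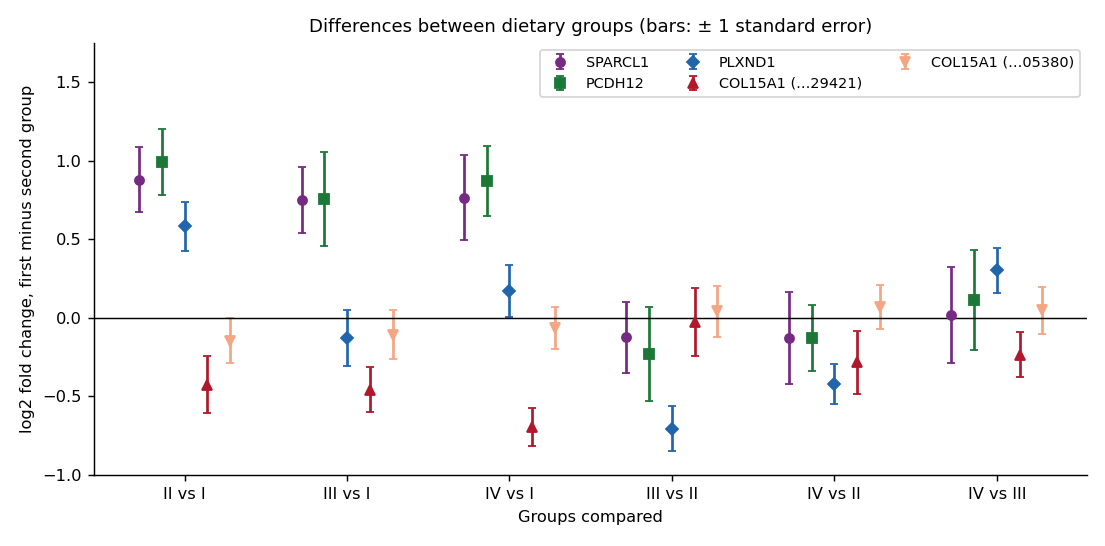
Each point is the log2 fold change of a gene between the groups named on the horizontal axis, first minus second, and the bars are ± 1 standard error of the edgeR fit. SPARCL1 and PCDH12 lie between 0.75 and 0.99 in the 3 comparisons with group I and near 0 between the groups fed cDDGS, whereas PLXND1 moves most from group II to group III, by -0.71.

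Group III was compared with group I on its own in none of the comparisons behind the choice, but its pigs were part of the combined groups, so its values are likewise given without a test. The log2 fold change against group I was 0.75 for SPARCL1 (SE 0.21) and 0.76 for PCDH12 (SE 0.30), and -0.46 for COL15A1 (SE 0.14). SPARCL1, PCDH12 and COL15A1 thus lay in the same direction as in groups II and IV, which was partly set by the choice. PLXND1 was at -0.13 (SE 0.18), a difference smaller than its error.

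The comparisons among the groups fed cDDGS asked whether the fat source changed the level of these genes. From group II to group III the log2 fold change of PLXND1 was -0.71 (SE 0.14, n = 5 and 6), with no overlap between the groups. Without overlap and lower in group III lay 0.250% of all genes. DESeq2 gave a log2 fold change of -0.70. PLXND1 was also lower in group IV than in group II, by -0.42 (SE 0.13), again without overlap, as were 0.179% of all genes in that direction. PLXND1 had been chosen for its high level in group II, so a lower level in groups III and IV was partly set by the choice. The values against group II are therefore a description without a p-value, and nothing is read from the lack of overlap. In edgeR PLXND1 was called in neither comparison. Group IV exceeded group III by 0.30 (SE 0.14, adjusted p = 0.997), and those groups overlapped.

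SPARCL1, PCDH12 and COL15A1 showed no difference among groups II, III and IV that passed the test. For SPARCL1 the log2 fold change was -0.12 from group II to III and -0.13 from group II to IV, with 95% intervals of -0.57 to 0.32 and -0.70 to 0.45. For PCDH12 the corresponding values were -0.23 (interval -0.82 to 0.35) and -0.13 (interval -0.54 to 0.28). COL15A1 changed by -0.03 (interval -0.45 to 0.40) and -0.28 (interval -0.68 to 0.11). Intervals of this width, from 5 or 6 pigs a group, do not show that the groups were alike.

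Sex was not used in choosing the genes. With dietary group as a covariate, PLXND1 averaged 83.7 CPM in the 12 females and 70.0 in the 11 males, a log2 fold change of 0.28 (SE 0.10, adjusted p = 0.158 in edgeR). SPARCL1 averaged 363 CPM in females and 497 in males, a log2 fold change of -0.39 (SE 0.17, adjusted p = 0.251). In group II, the 3 males had 489 to 710 CPM of SPARCL1 and the 3 females 306 to 474. The sexes overlapped in the other groups, with 181 to 421 CPM in males and 233 to 315 in females of group I, and in group III the mean was 486 CPM in females and 470 in males. PCDH12 (-0.24, SE 0.19, adjusted p = 0.536) and COL15A1 (0.20, SE 0.12, adjusted p = 0.392) had smaller values against their errors in the same edgeR fit. PLXND1 and SPARCL1 had an unadjusted p under 0.05, and none of the 4 passed the adjustment, while 0.819% of all genes were called between the sexes and 17.3% had an unadjusted p under 0.05. The females were 4 of 7, 3 of 6, 2 of 5 and 3 of 5 pigs in groups I to IV. The log2 difference of groups II+III+IV from group I was 0.54 higher in females than in males for COL15A1 (SE 0.25), which did not pass the adjustment (adjusted p = 0.9999 in edgeR). For the second identifier of COL15A1, described above, the value was 0.22 (SE 0.22), and for the other 3 genes it was -0.18 to -0.10. No difference between the sexes is read from these values. The combined groups were used in the choice and also differ in fat source.

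Whether the genes varied together from pig to pig was examined after subtracting each group's mean, so that the differences between groups used in the choice played no part. Across the 23 pigs, none of the 6 pairs passed the adjustment in a permutation test within groups. The largest values were Pearson's r = 0.44 for PCDH12 and PLXND1 (p = 0.0537, adjusted p = 0.150; Spearman's rho = 0.39, p = 0.0908, adjusted p = 0.452), -0.37 for PCDH12 and COL15A1 (p = 0.0750, adjusted p = 0.150; rho = -0.28, p = 0.226, adjusted p = 0.452) and -0.36 for SPARCL1 and COL15A1 (p = 0.0630, adjusted p = 0.150; rho = -0.30, p = 0.167, adjusted p = 0.452). Without the 2 pigs farthest from the median of the gene named first, r was 0.25, -0.39 and -0.31. SPARCL1 and PCDH12, the genes with the most similar log2 fold changes against group I, had r = 0.07 (p = 0.733, adjusted p = 0.879) and rho = 0.16 (p = 0.470, adjusted p = 0.564). Within group II alone their r was 0.71, against -0.10, -0.07 and 0.06 in groups I, III and IV, and these values from 5 to 7 pigs were not tested. With sex removed as well, 1 of several alternative settings, PCDH12 and PLXND1 reached r = 0.73 (permutation adjusted p = 0.000420). Here and below, pigs were permuted within groups but not within sexes. Before sex was removed, the r of this pair was 0.73, -0.09, 0.47 and 0.26 in groups I to IV. The share of reads on no gene had r between 0.03 and 0.30 with the 4 genes, and none of these 4 relations passed the adjustment in the permutation test (adjusted p of 0.802 or more). In groups I to IV alone, r was 0.46, -0.32, 0.38 and 0.76 for SPARCL1 and -0.42, 0.25, 0.01 and 0.69 for PCDH12. It was 0.02, 0.30, 0.77 and -0.31 for PLXND1 and -0.44, 0.06, 0.86 and -0.95 for COL15A1. These values by group were not tested.

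The closest relatives and partners of the genes were set beside them. SPARC, the matricellular protein after which the family of SPARCL1 is named, averaged 192 CPM ± 38.1 (n = 7), 156 ± 35.5 (n = 6), 171 ± 61.8 (n = 5) and 154 ± 58.7 (n = 5) from group I to group IV. Its log2 fold change in edgeR was -0.28 in group II (adjusted p = 0.460) and -0.30 in group IV (adjusted p = 0.526), and neither passed the test. Within groups, SPARCL1 and SPARC ran in opposite directions over the 23 pigs, with r = -0.76 (permutation p = 0.000220, adjusted p = 0.00110 over 5 such pairs) and rho = -0.68 (p = 0.00139, adjusted p = 0.00695). The pig of group IV with 191 CPM of SPARCL1 had 250 CPM of SPARC, the highest of its group, and the pig with 682 CPM of SPARCL1 had 91.4, the lowest of all pigs. In group II the order of the 6 pigs by SPARCL1 was the reverse of their order by SPARC, with r = -0.97, and in the 7 pigs of group I r was -0.41. Without the 2 pigs farthest from the median of SPARCL1, r was -0.62 (permutation p = 0.00598), and with sex removed as well it was -0.69 (permutation adjusted p = 0.0144). SPARC itself averaged 192 CPM in females and 145 in males (log2 fold change 0.44, SE 0.13, adjusted p = 0.103 in edgeR), opposite in direction to SPARCL1. Both genes are expressed as shares of the same libraries.

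SEMA3E, the semaphorin that binds PLXND1, averaged 12.7 CPM ± 4.63 (n = 7), 13.9 ± 6.96 (n = 6), 9.07 ± 5.17 (n = 5) and 8.11 ± 4.66 (n = 5) in groups I to IV. Pigs with more of the ligand had more of the receptor within groups, with r = 0.56 (permutation p = 0.00260, adjusted p = 0.00650) and rho = 0.57 (p = 0.00446, adjusted p = 0.0111). Without the 2 pigs farthest from the median of PLXND1, r was 0.53 (permutation p = 0.0148). Sex moved with this relation. SEMA3E averaged 14.3 CPM in females and 7.85 in males (log2 fold change 0.88, SE 0.22, adjusted p = 0.0512 in edgeR), and with sex removed as well the relation no longer passed the test, at r = 0.31 (permutation p = 0.132, adjusted p = 0.219). The coreceptor NRP1 had r = 0.33 with PLXND1 (permutation p = 0.134, adjusted p = 0.168) and rho = 0.37 (p = 0.0968, adjusted p = 0.161). With the RNA integrity number, a score of RNA quality, removed as well, r was 0.48 and passed (permutation p = 0.0173, adjusted p = 0.0289). With sex removed instead, r was 0.18 (permutation p = 0.479, adjusted p = 0.599). PCDH12 and PECAM1, both endothelial adhesion genes, had r = 0.13 (permutation p = 0.545, adjusted p = 0.545; rho = 0.21, p = 0.337, adjusted p = 0.337). The 2 identifiers of COL15A1 had r = 0.47 (permutation p = 0.0512, adjusted p = 0.0853; rho = 0.30, p = 0.217, adjusted p = 0.271).

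**Figure D3:**
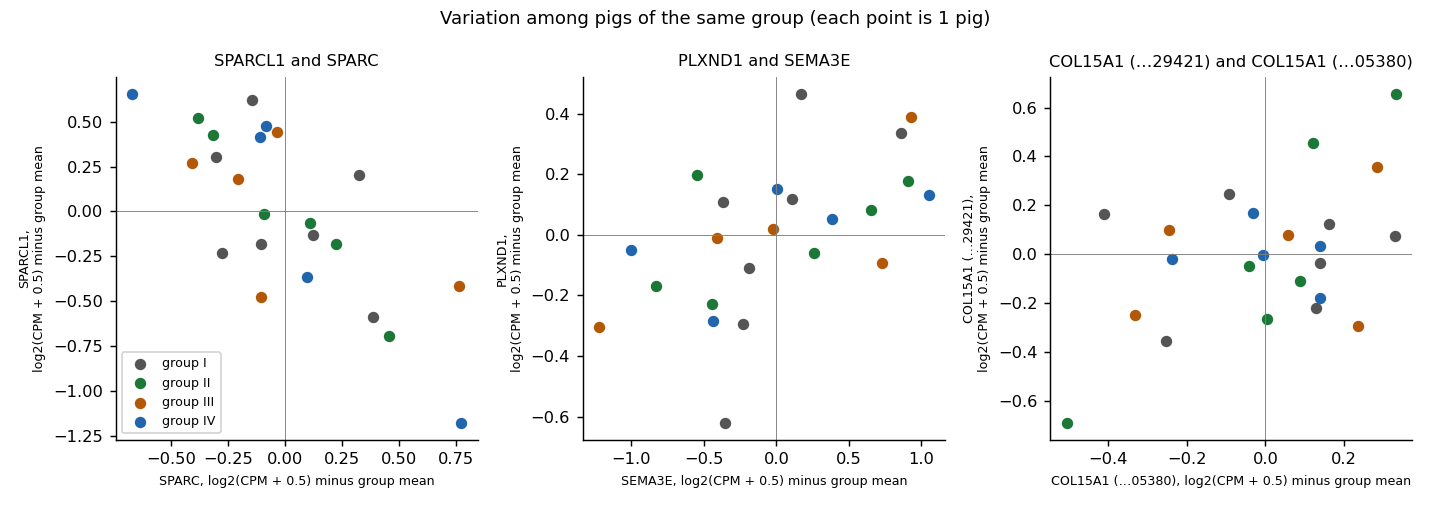
Each point is 1 pig, plotted by its deviation from its group's mean in log2(CPM + 0.5) for the pair of genes named on the axes, and colours mark the dietary groups. Points of SPARCL1 lie lower where SPARC is higher (r = -0.76), those of PLXND1 lie higher where SEMA3E is higher (r = 0.56), and the identifiers of COL15A1 show a looser relation (r = 0.47).

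The vascular and matrix genes around the 4 were described with lists of their pathways and of cell type markers. In the comparisons with group I, edgeR called 0 of their genes, beside 0.0291% of all genes in group II and 0.00% in groups III and IV. DESeq2 was the study's own method on these pigs, so its calls are not independent of the study. It was read only for listed genes with an unadjusted edgeR p under 0.05 against group I and for SPARC, NRP1, SEMA3E and PECAM1. In group II DESeq2 called C1QA, HES1, MRC1 and VSIG4, among 95 genes called in all, and in group IV HES1 and NOTCH4, among 151. For the groups combined, DESeq2 called 160 genes in all. Among them were C1QA, C1QC, CIDEC, HES1, VSIG4 and, alone of the endothelial genes read, ROBO4 (log2 fold change 0.48, adjusted p = 0.0324). There edgeR gave ROBO4 an adjusted p of 0.110. With sex as a covariate, edgeR called C1QA in group II (1.65, adjusted p = 0.0305), and limma-voom called C1QC for the groups combined (1.36, adjusted p = 0.0478). Without pig 53 of group IV edgeR called HES1 in that group (1.03, adjusted p = 0.0297), and without pig 1 of group I it called CIDEC for the groups combined (-0.52, adjusted p = 0.0207). The counts of all genes called under these settings are given at the end. Of the 30 endothelial genes listed, 19 had an identifier and 17 were tested in group II against group I. Their median log2 fold change was 0.09, against 0.00 over all genes, with 2 higher and 1 lower at an unadjusted p under 0.05. In group III the median of 18 was 0.18 with 2 higher, and in group IV it was 0.15 with 3 higher and 0 lower. Beside these, 13.0%, 7.96% and 14.2% of all genes had an unadjusted p under 0.05 in groups II, III and IV. The endothelial genes at that level in groups II and IV were ROBO4, a guidance receptor that stabilizes vessels (0.53, SE 0.17 in group II and 0.61, SE 0.17 in group IV), and ERG, a transcription factor of endothelial identity (0.34 and 0.44). NOS3, the endothelial nitric oxide synthase, was at 0.49 in group IV, and MMRN1, a matrix protein of endothelial cells and platelets, at -1.53 in group II. The 2 in group III were ERG (0.37, SE 0.16) and PTPRB (0.40, SE 0.17), an endothelial tyrosine phosphatase that was named after its value was seen. PECAM1 was at 0.19, 0.27 and 0.26 in groups II, III and IV, with adjusted p in edgeR of 0.700, 0.738 and 0.531. CDH5 and VWF, which mark endothelium, and COL18A1, the closest relative of COL15A1, had no identifier in the name table used and were not analysed here.

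Among the 24 basement membrane genes listed, 20 had an identifier and 18 were tested. The median log2 fold change was 0.05, 0.01 and -0.08 in groups II, III and IV. COL4A2, a chain of the collagen IV network, was at 0.02 in both group III and group IV, and NID1, which links laminin to collagen IV, was at 0.06 and -0.14. LAMA3, a laminin chain, was at 0.67 in group II with unadjusted p under 0.05, LAMB2, another laminin chain, was at 0.36 in group IV, and HSPG2, the proteoglycan perlecan, was at -0.30 in group III. The identifiers of COL15A1 were not counted in this list.

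Of the 26 semaphorin, neuropilin and plexin genes listed, 15 were tested against group I, and their medians were -0.09, -0.04 and -0.16 in groups II, III and IV. PLXNC1, a plexin of immune and other cells, was the list member at an unadjusted p under 0.05 in group II, at 0.66. It was lower in group III (-0.57, adjusted p = 0.790 in edgeR) and group IV (-0.53, adjusted p = 0.967) than in group II. That direction was partly set by naming the gene for its level in group II. At an unadjusted p under 0.05, 1 gene of the list was higher and 1 lower in group III than in group II. In group IV, SEMA6A (0.45) and SEMA3G (0.35) were higher and PLXNA1 (-0.53) and SEMA3F (-0.43) lower at that level. The 14 genes of VEGF, angiopoietin and Notch signalling tested had medians of 0.01, 0.12 and 0.20 in groups II, III and IV. Of these 14 genes, 6, 3 and 3 lay below 0. HES1, a transcriptional target of Notch, was at 0.70, 0.48 and 0.86 in groups II, III and IV. NOTCH4, the endothelial Notch receptor, was at 0.53 in group III and 0.76 in group IV. HES1 had adjusted p of 0.0983 for the 3 groups combined in edgeR, and DESeq2 called it there (adjusted p = 0.0238). HES1 took its symbol from the study's own table of genes chosen on these pigs, so its direction is no independent evidence.

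Markers of other cell types also differed on average between the groups. The 5 macrophage genes tested had a median log2 fold change of 1.42, 0.79 and 0.75 in groups II, III and IV, and the summed level of the 7 with an identifier was 34.3 to 167 CPM, 181 to 349, 77.9 to 234 and 88.7 to 226 from group I to group IV, with none at 0 in all pigs. C1QA, a chain of the complement component C1q, was at 1.51, 0.91 and 0.75 in the 3 groups. VSIG4 and C1QC of this list took their symbols from the same table of the study. The 7 adipocyte genes, among them the lipase LIPE (-0.50 in group II and -0.52 in group IV) and the lipid droplet gene CIDEC (-0.44 and -0.38), had medians of -0.34, -0.14 and -0.36, and summed levels of 3021 to 4327 CPM, 2385 to 3883, 2995 to 3416 and 2814 to 3316 in the same order. The 10 mural genes had medians of 0.13, 0.19 and -0.08, with 6, 8 and 3 of them above 0. CSPG4, a proteoglycan of pericytes, was at -0.74 in group III, opposite to most of the list there, and at -0.88 in group IV. MCAM, an adhesion molecule of pericytes and endothelium, was at 0.52 in group II. The 4 lymphatic genes had medians of -0.03, 0.04 and -0.05, with 2 above and 2 below 0 in each group. Of these 4 genes, only the hyaluronan receptor LYVE1 had an unadjusted p under 0.05 in group II, at 1.04. The 12 genes of fibrillar collagen and fibroblasts had medians of 0.11, -0.36 and -0.28, with 10, 0 and 0 of them above 0. At an unadjusted p under 0.05, 1 was higher in group II, 3 were lower in group III and 1 was lower in group IV. The part of these markers in the differences of the 4 genes was not tested.

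**Figure D4:**
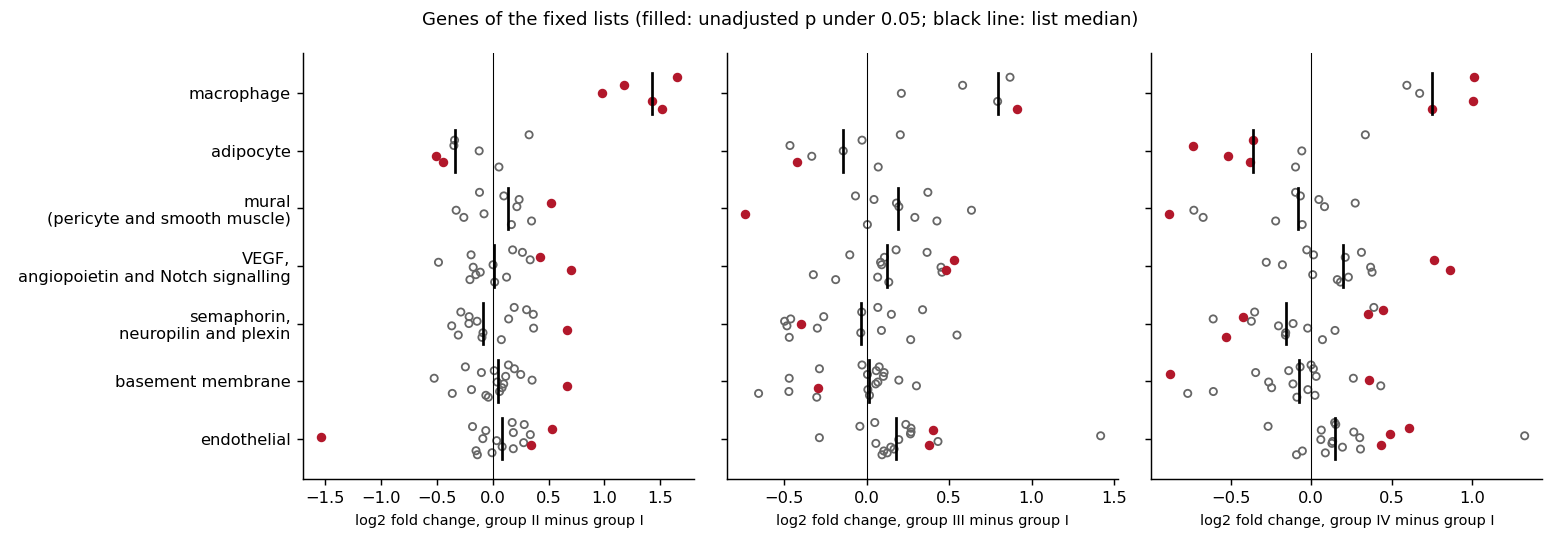
Each circle is a gene of the list named at the left, placed by its log2 fold change in group II, III or IV against group I, filled where the unadjusted p was under 0.05, and the black line is the median of the list. The endothelial and basement membrane medians lie between -0.08 and 0.18, and the macrophage median is the highest in each panel.

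Within groups, the lists differed in how their genes varied with the 4. Of 18 endothelial genes, 16 had a positive r with PLXND1 (median 0.24), as had 15 of 16 semaphorin, neuropilin and plexin genes (median 0.36), 11 of 12 fibrillar collagen and fibroblast genes (median 0.37) and 5 of 5 macrophage genes (median 0.44), where 51.6% of all genes had a positive r and the median was 0.02. Adipocyte genes went the other way, with 1 of 7 positive (median -0.17). For PCDH12, 12 of 18 endothelial genes had a positive r (median 0.11) beside 52.3% of all genes, and for SPARCL1 13 of 18 did (median 0.16) beside 45.9%. For COL15A1 only 7 of 18 did (median -0.05) beside 51.3%, and 5 of 18 (median -0.16) with sex removed. Of 18 basement membrane genes, 13 had a positive r with PLXND1 (median 0.28) and 12 with PCDH12 (median 0.13). For SPARCL1 this held for 6 (median -0.14) and for COL15A1 for 14 (median 0.13). SPARCL1 had a negative r with all 12 fibrillar collagen and fibroblast genes (median -0.39) and COL15A1 a positive one with 11 of them (median 0.30). Sex moved with these relations. The log2 fold change was above 0 in females for 15 of 16 semaphorin, neuropilin and plexin genes, 12 of 12 fibrillar collagen and fibroblast genes and 6 of 6 macrophage genes, as it was for PLXND1, and below 0 for SPARCL1. With sex removed as well, the medians for PLXND1 were 0.31 for the endothelial list (17 of 18 positive), 0.29 for the semaphorin list (13 of 16), 0.28 for the macrophage list (5 of 5), 0.11 for the fibrillar collagen list (10 of 12) and -0.28 for the adipocyte list (2 of 7). The median of SPARCL1 with the fibrillar collagen and fibroblast genes was then -0.16, with 2 of 12 positive, and that of COL15A1 was 0.14, with 10 of 12 positive. These are descriptions over the same 23 libraries, in which genes of a list are not independent of each other.

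Among 7804 genes with a symbol, those most like PLXND1 in the 23 pigs by r of group-centred values were LDB2 (0.88), a cofactor of transcription, TMEM44 (0.84), ELF4 (0.83), NAA80 (0.83) and LAMA3 (0.82). Those most like PCDH12 were ELK3 (0.73), a transcription factor, LHFPL6 (0.72), TMEM62 (0.70), LAMA4 (0.69), the laminin chain of vascular basement membranes, and AMBRA1 (0.68). SPARCL1 was most like UACA (0.84), MYO6 (0.81), ARGLU1 (0.81), STXBP3 (0.81) and RBBP6 (0.81). COL15A1 was most like TATDN2 (0.80), PLA2G6 (0.78), ITPK1 (0.76), CPSF2 (0.75) and TBCD (0.74). The 4 lists of 5 genes held no gene in common. The laminin chains near PLXND1 and PCDH12 were different genes, and their place among the nearest was not tested. Sex was not removed here.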

How the data were processed

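RNA-seq was performed on backfat of 23 pigs. According to the study's methods, the RNA was partly degraded, libraries were made with a stranded total RNA kit after ribosomal RNA depletion, and reads were trimmed with FLEXBAR, mapped with TopHat and counted with HTSeq per gene of the Ensembl Sscrofa 11.1 annotation. Versions of these tools are not given in the sources used here. Sequencing was in replicate on 1 flow cell, how the runs were merged is not stated, and the libraries of each pool are not known, so batches could not be examined. The values the authors deposited are raw counts per gene and pig, not normalized. Rows for reads on no gene (51.1% to 71.3% of uniquely mapped reads) were left out of library sizes. Dietary group and sex came from the sample labels. No pair of pigs of a group differed by as little as sampling noise (smallest chi-square per degree of freedom 7.02 over 56 pairs).

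Counts were analysed in R 4.3.3 with edgeR 4.0.16 (TMM, filterByExpr, quasi-likelihood test), each fit holding the pigs compared, with Benjamini-Hochberg adjustment over all genes tested. A gene was called at adjusted p under 0.05 and a fold change above 1.3. DESeq2 1.42.0, limma 3.58.1 (voom with sample weights), other normalizations and filters, and covariates for sex, RNA integrity number (from the study) or reads on no gene were alternatives, as was leaving out each pig. Group III against group I had been planned as a test of the 4 genes and is given as a description. Intervals are log2 fold change ± 1.96 SE. Single values among groups II, III and IV were tested by two-sided exact permutation of log2(CPM + 0.5), and correlations by 100000 permutations of pigs within groups, with p-values and fold changes covering the spread between these pigs. The code was tested on simulated data.

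The 4 genes, the gene lists and the comparisons were chosen with earlier results of these data known. Named genes were the 4, their relatives and partners, up to 3 genes of each list with the smallest unadjusted p under 0.05 against group I (group II, IV or all 3 combined), and the 5 genes most correlated with each of the 4. COL4A2, NID1, HSPG2, PTPRB and PLIN1 were added after their values were seen, as were the second identifier of COL15A1, the correlations with relatives and with reads on no gene, those with listed genes after removal of sex, and the interaction of sex and cDDGS. Symbols were known for 11804 of 25322 identifiers and for 130 of 179 listed genes. Reads with several mapping positions are not counted by HTSeq, which lowers the counts of genes that have a near copy. Without transcript lengths, levels are not compared between genes. Sequences and positions were not used here, and 1 listed gene is not reported here.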

Additional observations from a re-analysis of the deposited data

How the results depend on the processing

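For the 4 genes and the second identifier of COL15A1, 970 log2 fold changes recomputed under other settings changed no call or stayed within the spread between pigs (values near 0 could change sign), 5 came past a threshold and 1 moved. The 1 that moved was SPARCL1 in group IV against group I, at 0.11 with a covariate for reads on no gene in place of 0.76. The 5 that came past a threshold were PLXND1 in group III against II with DESeq2 (-0.70) and, by exact permutation without adjustment, SPARCL1 (0.75) and COL15A1 (-0.46) in group III against I and PLXND1 in group III (-0.69) and IV (-0.40) against II. The values of group III against I support nothing, since its pigs entered the choice of the genes. Nor do those of PLXND1 against group II, since the gene was chosen for its level there. With group means left in, r was -0.58 for SPARCL1 and COL15A1, 0.56 for PCDH12 and PLXND1 and -0.63 for PCDH12 and COL15A1, and with sex removed 0.73 for PCDH12 and PLXND1. The relation of PLXND1 and SEMA3E lost its call with sex removed. That of PLXND1 and NRP1 gained one with RNA integrity removed (r = 0.48, permutation adjusted p = 0.0289). The relation of SPARCL1 and SPARC kept its call in all settings run. Its r ran from -0.80 to -0.66 when a pig was left out, the latter without pig 53 of group IV. PCDH12 did not reach 10 counts in every pig, so that filter gave no value for it in comparisons with group I.

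Counts of called genes also moved between settings. They were judged by another rule than the log2 fold changes of the 4 genes, so the extent of the changes is not compared. DESeq2 called 95 in group II against I (3 in edgeR), 151 in IV against I (0), 160 for the groups combined (0), 13 in III against I (0), 29 in III against II (0), 2 in IV against II (0) and 254 between the sexes (92). In group II against I, 5 were called with sex as covariate and 0 with RNA integrity, with reads on no gene or with all 23 pigs in 1 fit. Combined, voom called 51, no filter 2 and 1 fit of all pigs 1. No filter gave 1 in III against I, 4 in III against II and 158 between the sexes. In III against II, the minimum of 10 counts gave 4, RNA integrity 1 and reads on no gene 2. In IV against II, sex and RNA integrity gave 1 each, in IV against III reads on no gene gave 1, and between the sexes RNA integrity gave 60. Leaving out a pig gave 0 to 17 in II against I (17 without pig 1), 0 to 116 in IV against I (116 without pig 53), 0 to 43 combined (43 without pig 1), 0 to 1 in III against I (1 without pig 43), 0 to 5 in III against II (5 without pig 24) and 37 to 200 between the sexes (37 without pig 43, 200 without pig 17). The causes were not tested.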
